A study of Mus musculus with 8 samples.

Results

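The GIMAP genes (GTPases of immunity-associated proteins) were followed in mouse regulatory T cells through the loss of Foxp3 and a renewed T cell receptor (TCR) stimulus. The 8 members were the genes in the deposited tables named Gimap1, Gimap3, Gimap4, Gimap5, Gimap6, Gimap7, Gimap8 and Gimap9, out of 55573 genes in the tables, and all 8 passed the filter on low counts that kept 16642 genes. The cells were natural regulatory T (nTreg) cells of RosaCas9/+ Foxp3gfp mice, which carry 1 copy of Cas9 at the Rosa locus and a green fluorescent reporter of Foxp3. CD4+ GFP+ cells were sorted from spleen and lymph nodes and kept in culture. They carried a guide RNA against Foxp3 (sgFoxp3) or a negative control guide (sgNC), and Cas9 and the reporter were present in all groups. The 4 groups were Foxp3-guide cells with mock treatment in DPBS (0 h), control-guide cells with mock treatment (0 h), Foxp3-guide cells restimulated with anti-CD3 and anti-CD28 (3 h) and control-guide cells restimulated in the same way (3 h), with 2 libraries in each. The ages and numbers of mice and the sequence of the guides are not given in the sources used here. Nothing in the labels says that the 2 libraries of a group came from separate mice or cultures, so the p-values measure the spread between libraries, which may be technical.

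GIMAP proteins are small GTP-binding proteins found mainly in lymphocytes, many of them anchored in the membranes of the endoplasmic reticulum, Golgi, mitochondria or lysosomes. They are best known for keeping resting T cells alive: mice without Gimap5, or without Gimap1 in T cells, lose most of their mature peripheral T cells, and rats with a Gimap5 mutation are severely short of T cells. Foxp3 is the transcription factor that defines regulatory T cells, and signals through the TCR and CD28 move T cells out of rest.

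The family lies in 1 cluster on chromosome 6, chr6:48647234-48770851, which spans 123618 bp in GRCm38 (GENCODE M21 annotation). From the low coordinate to the high, the order is Gimap8, Gimap9, Gimap4, Gimap6, Gimap7, Gimap1, Gimap5 and Gimap3. Gimap6 and Gimap3 are on the minus strand and the others on the plus strand. Gimap5 (chr6:48746197-48754210) and Gimap3 (chr6:48764464-48770851) face each other at the distal end, and Gimap7 is at chr6:48718621-48724636. The 250 bases before the RefSeq start (GRCm38.p6) are shown for these 3 genes because Gimap5 had the largest increase on TCR stimulation in the family, Gimap7 had the largest decrease, and Gimap3 is the close relative of Gimap5 that did not move with it. Each is written 5′ to 3′ on the gene's own strand, and capitals mark matches, on either strand, to the motifs searched.
Gimap5 (chr6:48745947-48746196, + strand): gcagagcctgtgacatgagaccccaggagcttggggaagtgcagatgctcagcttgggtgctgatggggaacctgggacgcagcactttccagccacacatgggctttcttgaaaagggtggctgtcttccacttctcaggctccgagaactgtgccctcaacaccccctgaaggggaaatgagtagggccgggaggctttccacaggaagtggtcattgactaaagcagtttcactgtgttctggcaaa
Gimap7 (chr6:48718371-48718620, + strand): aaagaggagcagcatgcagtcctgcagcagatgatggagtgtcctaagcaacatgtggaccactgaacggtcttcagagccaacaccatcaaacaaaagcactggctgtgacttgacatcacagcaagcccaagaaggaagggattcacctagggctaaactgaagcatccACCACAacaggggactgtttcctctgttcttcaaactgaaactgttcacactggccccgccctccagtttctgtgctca
Gimap3 (chr6:48770852-48771101, - strand): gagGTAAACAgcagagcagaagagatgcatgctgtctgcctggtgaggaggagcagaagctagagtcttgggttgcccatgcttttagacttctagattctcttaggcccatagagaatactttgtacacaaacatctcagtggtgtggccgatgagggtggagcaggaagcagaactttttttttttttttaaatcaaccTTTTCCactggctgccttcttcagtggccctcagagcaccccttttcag
The 8 motifs were TGTTTAC (forkhead), GGAAAA (NFAT), TGANTCA (AP-1), the NF-kappaB consensus with any base at its centre, TGTGGT (RUNX), CACACCC (KLF), CCGGAAG (ETS) and CTTTGAT (TCF/LEF), searched on both strands in the windows before all RefSeq starts. The Gimap5 window held none of them. The Gimap7 window held 1 RUNX match. The Gimap3 window held 1 forkhead match and 1 NFAT match, and its forkhead match was the only one among the 8 members, against 3.17% of all 32851 windows. NFAT letters were found before Gimap1, Gimap3 and Gimap6 and in 20.4% of all windows, and RUNX letters before Gimap1, Gimap4 and Gimap7 and in 14.05% of all windows. The other 5 motifs were in no member's window, and they were in 0.356% (NF-kappaB) to 6.93% (KLF) of all windows. No 2 of the marked matches overlapped in the 3 windows shown. CpG dinucleotides numbered 1 to 3 per window except before Gimap9, which had 8, and the median of all windows was 6.

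Library totals were between 38729009 and 94807361 expected counts, of which the family took 0.157% to 0.313%. Levels are given in CPM, read counts scaled to the TMM-adjusted size of the library, where samples are compared, and in TPM, a scale that also divides by transcript length, where genes are compared. Foxp3, the targeted gene, had 87.6 and 88.5 CPM in Foxp3-guide cells at 0 h, against 764 and 776 CPM in control-guide cells at 0 h, and 76.1 and 71.8 CPM in Foxp3-guide cells at 3 h, against 679 and 673 CPM in control-guide cells at 3 h. Its RNA was thus 8.75-fold lower at 0 h and 9.15-fold lower at 3 h with the Foxp3 guide, and not absent. The 5 regulatory T cell markers (Foxp3, Il2ra, Ctla4, Ikzf2, Tnfrsf18) were present in all libraries. Summed, they had 1373 and 1401 CPM in Foxp3-guide cells, against 3732 and 3709 CPM in control-guide cells at 0 h, and 3843 and 3868 CPM in Foxp3-guide cells, against 7827 and 7675 CPM in control-guide cells at 3 h. The 5 T cell markers (Cd3e, Cd3d, Cd3g, Cd4, Trac) summed to 1679 and 1705 CPM in Foxp3-guide cells, against 1328 and 1351 CPM in control-guide cells at 0 h, the opposite direction to the GIMAP genes. At 3 h they summed to 1221 and 1267 CPM in Foxp3-guide cells, against 1103 and 1128 CPM in control-guide cells. At an adjusted p below 0.05 (edgeR), 4 of the 5 were higher at 0 h (34.2% of all genes). At 3 h 4 were higher (30.7% of all genes) and Trac was lower (30.8%). Markers of B, CD8, NK, myeloid and erythroid cells summed per list to between 0.449 and 9.46 CPM in any library. The list of 5 endothelial markers had 1 gene that passed the filter, Pecam1, which T cells also express; the list summed to 131 and 130.2 CPM in Foxp3-guide cells, against 201 and 211 CPM in control-guide cells at 0 h, and to 39.9 and 41.7 CPM in Foxp3-guide cells, against 30.3 and 29.7 CPM in control-guide cells at 3 h. The part of these marker shifts in the GIMAP results was not tested.

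All 8 members were lower with the Foxp3 guide, both at rest and after stimulation. Summed over the family, 1735 and 1776 TPM were measured in Foxp3-guide cells at 0 h, against 3024 and 2920 TPM in control-guide cells at 0 h. At 3 h the sums were 1441 and 1421 TPM in Foxp3-guide cells, against 2703 and 2668 TPM in control-guide cells. The groups did not overlap at either time, and the log2 ratio of the summed TPM was -0.76 at 0 h and -0.91 at 3 h. On the CPM scale the guide ratios were smaller, -0.51 at 0 h and -0.76 at 3 h. In bulk RNA, fewer cells with a transcript and less of it per cell cannot be told apart. Between 3 h and 0 h the summed TPM moved less, with log2 ratios of -0.29 in Foxp3-guide cells and -0.15 in control-guide cells; on the CPM scale those ratios were -0.05 and 0.21, so the direction in control-guide cells depends on the scale.

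**Figure D1:**
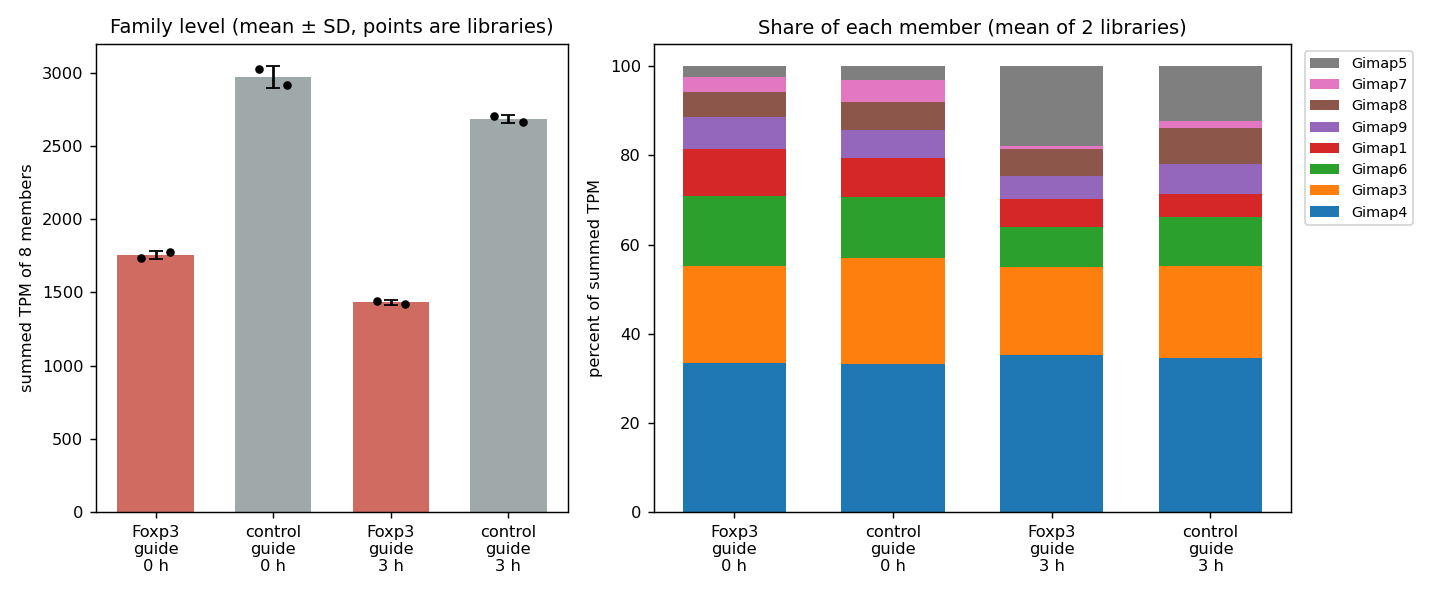
Left, summed TPM of the 8 GIMAP genes in each group (bars are means of 2 libraries, error bars the SD, points the libraries); right, the percentage of that sum held by each gene (mean of 2 libraries). The Foxp3-guide groups sit at 1755 and 1431 TPM, below the control-guide groups at 2972 and 2685 TPM, and the share of Gimap5 is 17.9% and 12.2% in the 3 h groups, against 2.39% and 3.17% in the 0 h groups.

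The shares of Gimap5 and Gimap7 in the family differed more between times than between guides. Gimap4 held 33.4% of the summed TPM in Foxp3-guide cells at 0 h and was the highest member per length in every group, with a rank among all genes between 137 and 290. Gimap3 was next in every group. Below them the order was Gimap6, Gimap1, Gimap9, Gimap8, Gimap7 and Gimap5 in both 0 h groups, where Gimap9 and Gimap8 overlapped in control-guide cells. At 3 h Gimap5 came directly after Gimap3 in both groups. It was followed by Gimap6, Gimap1, Gimap8, Gimap9 and Gimap7 in Foxp3-guide cells, where Gimap1 and Gimap8 overlapped, and by Gimap6, Gimap8, Gimap9, Gimap1 and Gimap7 in control-guide cells. Gimap7 was last at 3 h with 0.612% of the sum in Foxp3-guide cells and 1.66% in control-guide cells, against 3.44% in Foxp3-guide cells and 4.81% in control-guide cells at 0 h. Its rank among all genes by TPM was between 1070 and 8118, the widest range of the 8.

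At 0 h the guide effect was a decrease in 8 of 8 members at an adjusted p below 0.05, where 29.1% of all 16642 genes were lower by the same rule and 63.3% changed in either direction. In the same comparison 8 of 8 members had no overlap between Foxp3-guide and control-guide libraries in CPM, with 38.1% of all genes lower without overlap. At 3 h, 8 of 8 were again lower, against 30.8% of all genes (61.5% in either direction), and 8 of 8 had no overlap, against 40.1% of all genes. The median log2 change of the members was -0.54 at 0 h and -0.88 at 3 h, beside medians of 0.02 and -0.01 over all genes tested. All 8 stayed lower at both times under each of the 19 other settings tried; Gimap1 at 0 h lost its call without replicate 2 of the Foxp3-guide 0 h group (log2 change -0.11, adjusted p = 0.0914). On log2(TPM + 1) the 0 h differences of Gimap1 (-0.44), Gimap6 (-0.59), Gimap9 (-0.63) and Gimap4 (-0.75) were over 1.5 times those on counts, while the median of all genes moved to -0.15.

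**Figure D2:**
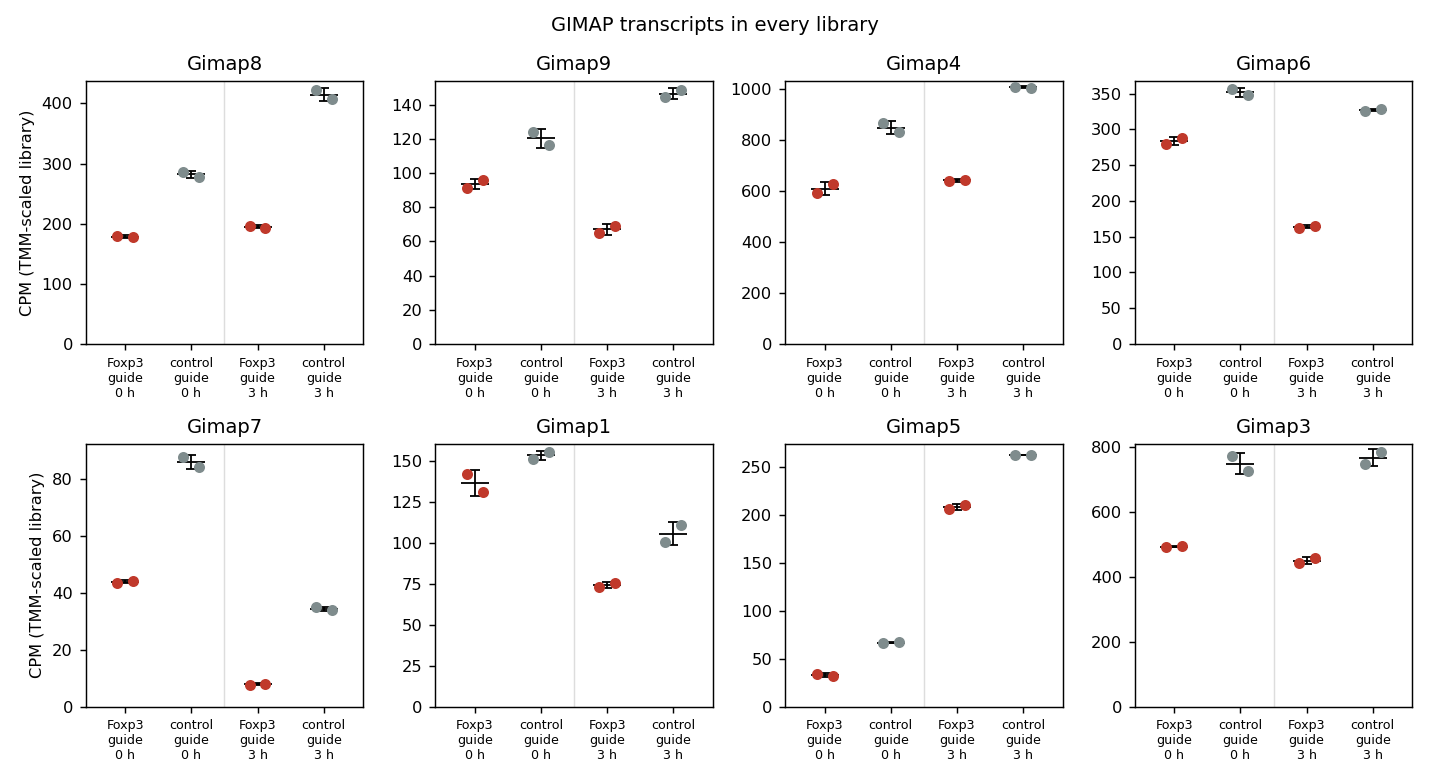
CPM of each GIMAP gene in each of the 8 libraries (points), with the mean and SD of each group, in the order of the genes along the chromosome; each vertical axis starts at 0. In all 8 panels the Foxp3-guide libraries lie below the control-guide libraries of the same time, for example 7.57 and 8.05 CPM against 35.0 and 34.0 CPM for Gimap7 at 3 h.

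Gimap5, a protein of lysosomal and other inner membranes needed for T cell survival, had the largest rise on stimulation in the family, and the Foxp3 guide lowered it more at rest than at 3 h. Foxp3-guide cells had 34.3 and 31.9 CPM at 0 h, against 66.4 and 67.3 CPM in control-guide cells at 0 h. At 3 h Foxp3-guide cells had 206 and 210 CPM, against 263 and 262 CPM in control-guide cells. None of the 4 groups overlapped. The log2 difference between guides was -1.01 (SE 0.04, adjusted p = 2.80e-16) at 0 h and -0.34 (SE 0.04, adjusted p = 2.74e-08) at 3 h. Stimulation raised Gimap5 by 6.28-fold in Foxp3-guide cells and by 3.93-fold in control-guide cells. The sequence before its start, shown above, held none of the letters searched for NFAT, AP-1 or NF-kappaB, from which nothing follows about those factors.

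Gimap3, the closest relative of Gimap5 and a membrane protein that regulates Gimap5 in mice, did not rise with it. Foxp3-guide cells had 493 and 494 CPM at 0 h, against 772 and 726 CPM in control-guide cells at 0 h. At 3 h the values were 442 and 458 CPM in Foxp3-guide cells, against 748 and 785 CPM in control-guide cells. The guides were separate at both times, while the 2 control-guide groups overlapped each other. The guide differences were -0.60 (SE 0.04) at 0 h and -0.77 (SE 0.04) at 3 h on the log2 scale. The annotated transcripts of Gimap3 and Gimap5 share 41 stretches of 100 bases, which is 1.65% of those in Gimap3 and 0.966% of those in Gimap5, and 190 stretches of 50 bases, which is 7.52% of those in Gimap3 and 4.53% of those in Gimap5. The read length is not given in the sources used here, so how many reads the 2 genes share is uncertain.

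Gimap7, a soluble member reported on human lipid droplets, had the largest guide difference of the 8 at 3 h. At 0 h Foxp3-guide cells had 43.5 and 44.3 CPM, against 87.6 and 84.2 CPM in control-guide cells. At 3 h 7.57 and 8.05 CPM were left in Foxp3-guide cells, against 35.0 and 34.0 CPM in control-guide cells. All 4 groups were separate. The guide difference was -0.97 (SE 0.04, adjusted p = 2.05e-15) at 0 h and -2.13 (SE 0.06, adjusted p = 7.55e-20) at 3 h, a 4.39-fold lower level, and 2.51% of all genes had a lower log2 change than this at 3 h. Stimulation lowered Gimap7 by 5.59-fold in Foxp3-guide cells and by 2.49-fold in control-guide cells.

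Gimap6, which binds a GABARAP-type protein and takes part in autophagy, and Gimap9, whose function is less well described, shared a guide difference that was small at rest and larger at 3 h. For Gimap6, Foxp3-guide cells had 280 and 287 CPM at 0 h, against 356 and 348 CPM in control-guide cells, and 162 and 166 CPM at 3 h, against 326 and 328 CPM in control-guide cells. For Gimap9, Foxp3-guide cells had 91.4 and 95.8 CPM at 0 h, against 124 and 116 CPM in control-guide cells, and 64.9 and 69.2 CPM at 3 h, against 144 and 149 CPM in control-guide cells. The Foxp3-guide 3 h group was the lowest of the 4 for both genes. The guide difference in Gimap6 was -0.31 (SE 0.04) at 0 h and -0.996 (SE 0.04, adjusted p = 6.00e-17) at 3 h. The guide difference in Gimap9 was -0.36 (SE 0.04) at 0 h and -1.12 (SE 0.04, adjusted p = 7.47e-17) at 3 h.

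Gimap4, the most abundant member, which affects the pace of T cell death, and Gimap8, a large member with several GTP-binding domains found at mitochondria, were lower with the Foxp3 guide and near or above their 0 h level in CPM after stimulation. For Gimap4, Foxp3-guide cells had 591 and 627 CPM at 0 h, against 866 and 830 CPM in control-guide cells, and 638 and 645 CPM at 3 h, against 1009 and 1004 CPM in control-guide cells. For Gimap8, Foxp3-guide cells had 179.9 and 177 CPM at 0 h, against 286 and 277 CPM in control-guide cells, and 197 and 193 CPM at 3 h, against 422 and 407 CPM in control-guide cells. Each control-guide group was above both Foxp3-guide groups for the 2 genes. The guide difference in Gimap4 was -0.48 (SE 0.04) at 0 h and -0.65 (SE 0.04) at 3 h, and that in Gimap8 was -0.66 (SE 0.04) at 0 h and -1.09 (SE 0.04, adjusted p = 1.14e-17) at 3 h.

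Gimap1, which is needed for the survival of mature lymphocytes, had the smallest guide difference at rest. Foxp3-guide cells had 142 and 131 CPM at 0 h, against 151 and 156 CPM in control-guide cells at 0 h. At 3 h Foxp3-guide cells had 73.0 and 75.6 CPM, against 101 and 111 CPM in control-guide cells. The 4 groups were separate. The guide difference was -0.17 (SE 0.05, adjusted p = 0.00300) at 0 h and -0.51 (SE 0.05, adjusted p = 7.98e-09) at 3 h. Of the 100-base stretches of the Gimap1 transcripts, 28.3% are the reverse complement of the annotated antisense gene Gimap1os and 3.17% also lie in Gm28053, a gene model that spans Gimap7 to Gimap5. The libraries were stranded per the labels, but whether the counting used the strand is not given in the sources used here. If it did not, Gimap1 reads may be shared with Gimap1os, whose expected counts were whole in every library. With Gm28053, on the same strand as Gimap1, reads may be shared under either way of counting.

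**Figure D3:**
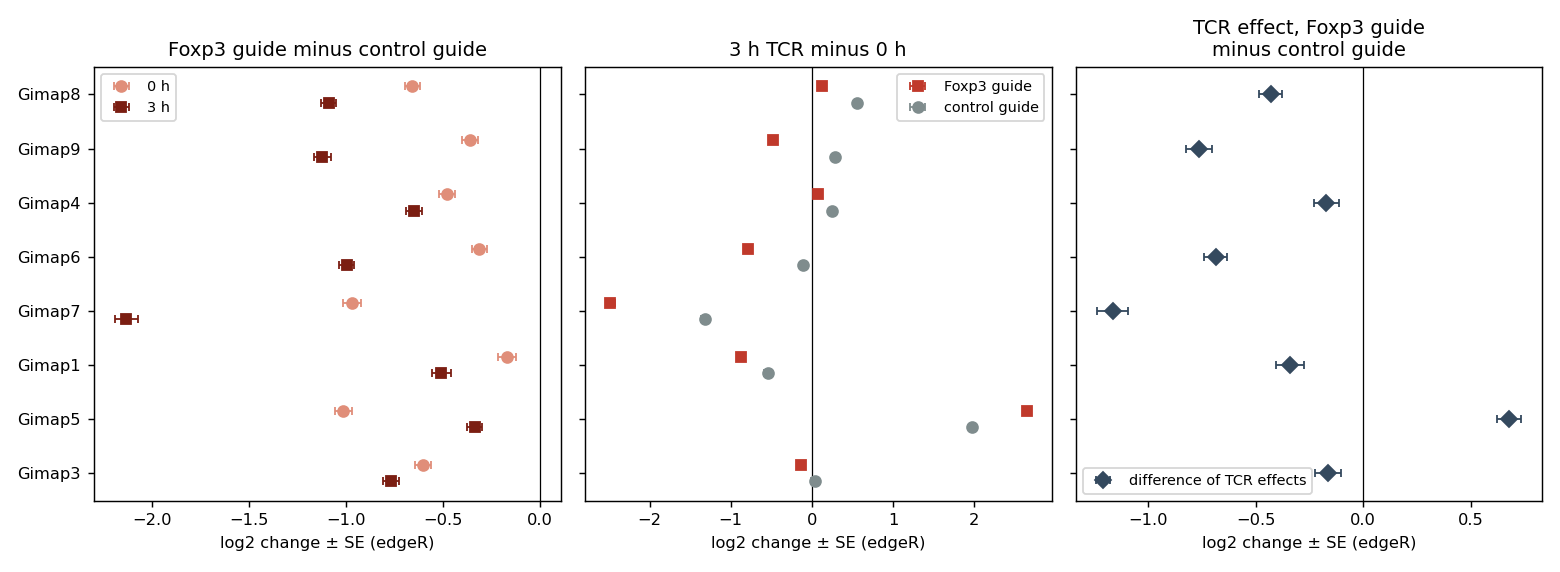
Log2 changes with their SE (edgeR, 8 libraries) for each GIMAP gene. Left, Foxp3 guide minus control guide at 0 h and 3 h, all below 0; middle, 3 h minus 0 h in each guide, where Gimap5 reaches 2.65 and 1.97 and Gimap7 -2.48 and -1.32; right, the difference between those TCR effects, above 0 for Gimap5 alone.

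TCR stimulation moved the members apart. In Foxp3-guide cells 2 members were higher and 5 lower at 3 h than at 0 h, against 40.8% of all genes higher and 44.5% lower (85.4% in either direction). In control-guide cells 4 members were higher and 3 lower, against 40.9% of all genes in each direction (81.8% in both together). The median log2 change of the members was -0.30 in Foxp3-guide cells and 0.14 in control-guide cells, beside -0.07 and -0.01 over all genes. Gimap5 rose in cells with either guide (log2 change 2.65, SE 0.04 with the Foxp3 guide; 1.97, SE 0.04 with the control guide). Gimap7 fell by 2.48 (SE 0.06) in Foxp3-guide cells and by 1.32 (SE 0.05) in control-guide cells on the log2 scale. Gimap1 fell by 0.88 in Foxp3-guide cells and by 0.54 in control-guide cells, and Gimap6 fell by 0.79 in Foxp3-guide cells and by 0.11 in control-guide cells. The last of these lost its call without replicate 1 of the control-guide 0 h group (log2 change -0.09, adjusted p = 0.0835). On log2(TPM + 1) the control-guide changes were -0.88 for Gimap1 and -0.50 for Gimap6. Gimap9 fell by 0.48 in Foxp3-guide cells, and was lower there under each setting tried, and had a log2 change of 0.28 in control-guide cells, which was -0.03 on the TPM scale, and its Foxp3-guide change was -0.72 on that scale.

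The smaller TCR effects depended on the scaling. Gimap8 had log2 changes of 0.12 in Foxp3-guide cells and 0.56 in control-guide cells on TMM-scaled counts, and of -0.16 in Foxp3-guide cells and 0.20 in control-guide cells on log2(TPM + 1). Gimap4 had 0.08 (adjusted p = 0.0972) in Foxp3-guide cells and 0.25 in control-guide cells on TMM-scaled counts, and -0.22 in Foxp3-guide cells and -0.09 in control-guide cells on log2(TPM + 1). Gimap3 had -0.13 in Foxp3-guide cells and 0.03 (adjusted p = 0.476) in control-guide cells on TMM-scaled counts, and -0.44 in Foxp3-guide cells and -0.34 in control-guide cells on log2(TPM + 1). The median of all genes itself moved on that scale, to -0.18 in Foxp3-guide cells and -0.20 in control-guide cells. Measured from that median on log2(TPM + 1), the control-guide changes were 0.40 for Gimap8, 0.16 for Gimap9, 0.11 for Gimap4 and -0.14 for Gimap3, and the Foxp3-guide changes were 0.01 for Gimap8 and -0.04 for Gimap4. The Gimap3 change in Foxp3-guide cells was not called without replicate 1 of the Foxp3-guide 3 h group (-0.04, adjusted p = 0.437). That of Gimap4 was called without the same library (0.14, adjusted p = 0.0154) and without replicate 2 of the Foxp3-guide 0 h group (0.12, adjusted p = 0.0447).

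The TCR effect differed between the guides in 8 of 8 members, where 44.8% of all genes differed; 7 members were lower in this difference (27% of all genes) and 1 was higher (17.8%). The difference is the log2 TCR effect in Foxp3-guide cells minus that in control-guide cells, which equals the guide effect at 3 h minus that at 0 h. Gimap5 was the member with a positive difference, 0.68 (SE 0.06, adjusted p = 5.13e-10). Gimap7 had -1.17 (SE 0.07, adjusted p = 3.47e-12), Gimap9 -0.76 (SE 0.06), Gimap6 -0.68 (SE 0.05), Gimap8 -0.43 (SE 0.05) and Gimap1 -0.34 (SE 0.07). The median over the members was -0.39, beside -0.09 over all genes. Gimap3 (-0.17, adjusted p = 0.0292) and Gimap4 (-0.17, adjusted p = 0.0213) passed narrowly. Without replicate 1 of the Foxp3-guide 3 h group they stood at -0.05 (adjusted p = 0.606) and -0.08 (adjusted p = 0.418). Both calls were also lost when replicate 2 of the control-guide 0 h, Foxp3-guide 0 h or Foxp3-guide 3 h group was left out, and that of Gimap3 when replicate 1 of the Foxp3-guide 0 h group or replicate 2 of the control-guide 3 h group was. With RLE scaling they were -0.10 (adjusted p = 0.185) for Gimap3 and -0.11 (adjusted p = 0.151) for Gimap4.

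Across the 8 libraries the members fell into unlike profiles. The distance used is the Euclidean distance between log2 CPM profiles, each centred on its own mean, and as the libraries are shared these are descriptions. The closest pair was Gimap3 and Gimap4 (distance 0.355), and Gimap4 and Gimap8 had the highest correlation (Pearson r = 0.988). The farthest pair was Gimap5 and Gimap7 (distance 6.23, r = -0.58). Gimap7 correlated with Gimap1 (r = 0.965) and Gimap6 (r = 0.949), which also fell on stimulation. Among 9233 other genes with a mean of at least 3 on the log2 CPM scale, the 5 nearest to the mean profile of the family were Eci1 (distance 0.166), an enzyme of fatty acid oxidation, Lpar2 (0.218), a receptor for lysophosphatidic acid, Ltb (0.221), the cytokine lymphotoxin beta, Pofut1 (0.243), which adds fucose to Notch receptors, and 5031439G07Rik (0.274). Guide differences in Ltb were -0.56 at 0 h and -1.005 at 3 h, and in Eci1 -0.68 at 0 h and -1.01 at 3 h. Ltb and Eci1 were also among the 5 nearest on log2(TPM + 1), and the other 3 were not.

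Genes beside the cluster did not share one direction. Within 200 kb of it or inside it, 32 other genes are annotated and 15 passed the filter. With the Foxp3 guide 7 of the 15 were higher and 6 lower at 0 h, where 34.2% of all genes were higher and 29.1% lower, and 4 were higher and 6 lower at 3 h, where 30.7% of all genes were higher and 30.8% lower. Tmem176a and Tmem176b, membrane protein genes and the nearest beyond Gimap3 that passed the filter, were higher at 0 h. Tmem176a had 27.2 and 25.8 CPM in Foxp3-guide cells at 0 h, against 15.6 and 15.2 CPM in control-guide cells at 0 h. Its guide difference was 0.79 (SE 0.06) at 0 h and 0.40 (SE 0.07) at 3 h, and that of Tmem176b was 0.62 at 0 h. At 3 h Tmem176b had 12.1 and 13.4 CPM in Foxp3-guide cells, against 12.2 and 10.5 CPM in control-guide cells, which overlap; its difference was 0.17 (adjusted p = 0.0466), and its mean TPM was 16.4 in Foxp3-guide cells, against 16.8 in control-guide cells. On the Gimap8 side, Gm10243 (0.83 at 0 h and 0.35 at 3 h) was higher at both times. Repin1, Zfp775 and Gm7887 had 0.31, 0.39 and 0.22 at 0 h, and -0.06, 0.16 and 0.18 at 3 h, where they were not called. In TPM, the mean of Gm7887 at 0 h was 27.1 in Foxp3-guide cells, against 28.9 in control-guide cells. For Repin1 these means were 6.795 and 6.605. AI854703, the neighbour next to Gimap8, had 0.42 (edgeR adjusted p = 0.0488) at 0 h and -0.53 at 3 h. Its level was low, with 1.57 and 2.12 CPM in Foxp3-guide cells at 0 h, against 1.25 and 1.49 CPM in control-guide cells. Lrrc61, further out, had -1.87 at 0 h and -1.54 at 3 h, Sspo had -2.30 at 0 h and -1.77 at 3 h, and Zfp862-ps had -0.65 at 0 h and 0.17 at 3 h. The mean TPM of Zfp862-ps at 3 h was 74.9 in Foxp3-guide cells, against 77.2 in control-guide cells. Atp6v0e2 was not called in either comparison. Stimulation raised 6 and lowered 8 of the 15 in Foxp3-guide cells and raised 7 and lowered 6 in control-guide cells, near the shares of all genes (40.8% higher and 44.5% lower in Foxp3-guide cells, 40.9% each way in control-guide cells). Their TCR effects differed between guides in both directions, higher in 3 and lower in 6, where 17.8% of all genes were higher and 27% lower.

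Inside the cluster, 4833403J16Rik, a transcript between Gimap5 and Gimap3, was lower with the Foxp3 guide and higher after stimulation, as Gimap5 was. It had 6.89 and 7.30 CPM in Foxp3-guide cells at 0 h, against 14.5 and 14.4 CPM in control-guide cells at 0 h. At 3 h it had 22.6 and 24.0 CPM in Foxp3-guide cells, against 38.2 and 39.6 CPM in control-guide cells. Its guide difference was -1.03 at 0 h and -0.73 at 3 h, and stimulation raised it by 1.72 in Foxp3-guide cells and by 1.43 in control-guide cells on the log2 scale. Zfp862-ps, outside the cluster, rose by more, 3.53 in Foxp3-guide cells and 2.71 in control-guide cells. Gimap1os had -0.18 at 0 h and -0.55 at 3 h for the guide, close to the values of Gimap1. Its change on stimulation was -0.16 in Foxp3-guide cells and 0.22 in control-guide cells, where Gimap1 fell in both. In TPM, Gimap1os also fell in control-guide cells, from a mean of 12.7 at 0 h to 11.3 at 3 h. If strand was not used, reads from the stretch where Gimap1 and Gimap1os overlap cannot be told apart. The expected counts of Gimap1os were whole in every library, for example 723 and 656 in Foxp3-guide cells at 0 h. Those of Gm28053 were not (228.42 and 283.58 in the same libraries). Whether the counting used the strand was not tested. Gm28053 had -0.52 at 0 h and -0.58 at 3 h, and Gm44226, under 1 CPM in every library, was not called in any comparison.

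**Figure D4:**
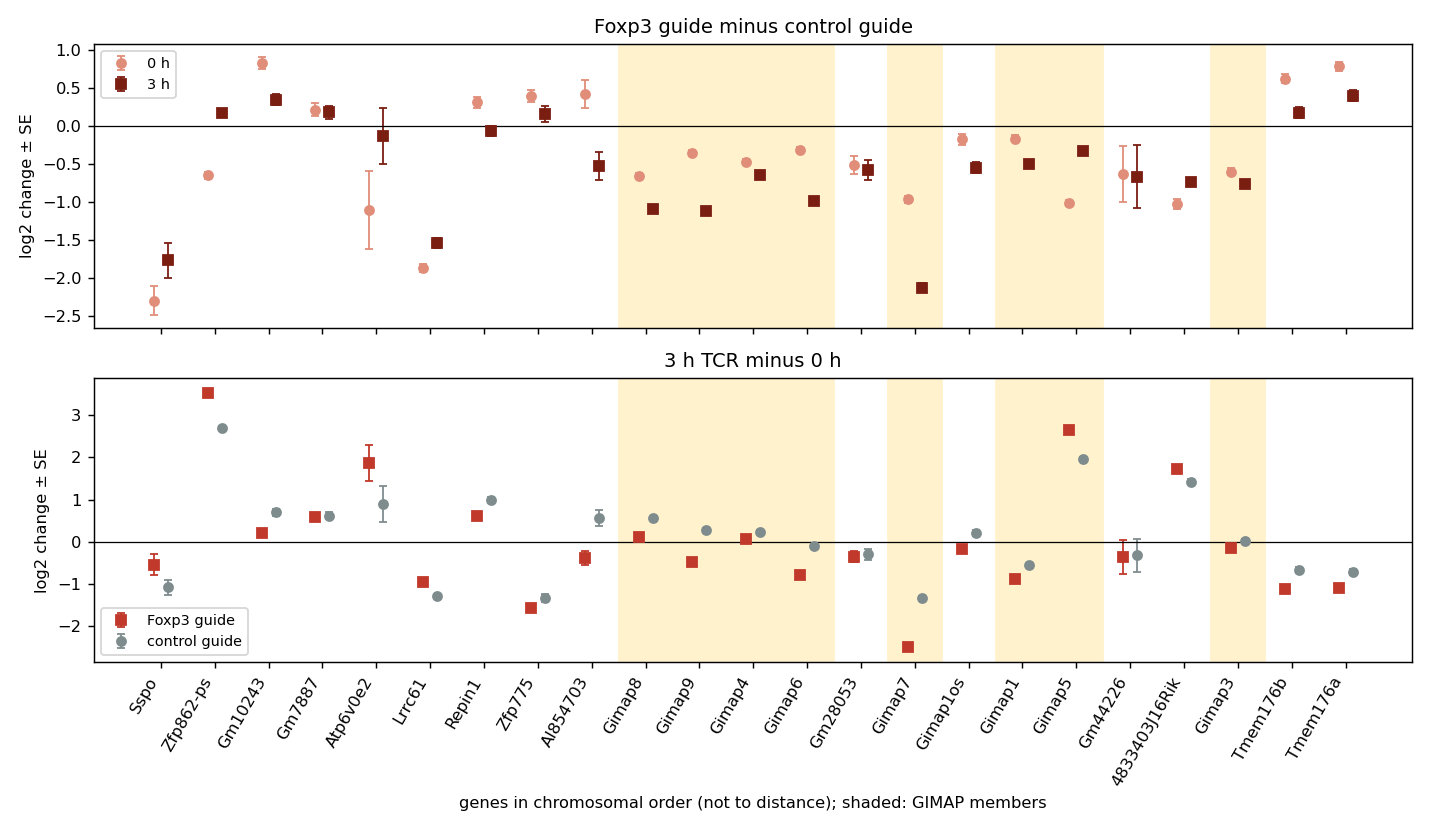
Log2 changes with their SE for the 8 GIMAP genes (shaded) and the 15 neighbours that passed the filter, in chromosomal order and not to distance. Top, Foxp3 guide minus control guide at 0 h and 3 h, where shaded genes are all below 0 and Tmem176a and Tmem176b are above it, Tmem176b at 3 h by 0.17 only. Bottom, 3 h minus 0 h in each guide, where Gimap5, 4833403J16Rik and Zfp862-ps are among the genes above 0.

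Other gene lists were set beside the family. Of 20 regulators of T cell quiescence and the naive state, 7 were higher and 9 lower with the Foxp3 guide at 0 h (34.2% and 29.1% of all genes), and 5 were higher and 13 lower at 3 h (30.7% and 30.8% of all genes). The median log2 change of the list was -0.04 at 0 h and -0.33 at 3 h, beside 0.02 and -0.01 over all genes. Tcf7, which encodes the naive T cell factor TCF-1, was 2.39 higher on the log2 scale and Slfn2, a quiescence factor, 1.32 higher at 0 h, while Foxo1, a transcription factor of resting T cells, fell by 0.49. At 3 h Foxp1 was 1.15 and Satb1 0.83 higher, while Klf2, a transcription factor of resting T cells, fell by 2.90 and S1pr1, the receptor for exit from lymphoid organs, by 2.17. Stimulation lowered 16 of the 20 in Foxp3-guide cells (median log2 change -1.67) and 17 in control-guide cells (median -1.38), where 44.5% and 40.9% of all genes were lower. S1pr1 fell by 6.61 and Klf2 by 6.23 in Foxp3-guide cells, and S1pr1 fell by 4.33 and Klf3 by 3.71 in control-guide cells; Slfn2 (1.95 and 2.99) and Bach2 (0.94 and 0.82) rose in Foxp3-guide and in control-guide cells.

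Of 10 binding partners and survival genes linked to GIMAP proteins, 5 were higher and 3 lower with the Foxp3 guide at 0 h, and 4 were higher and 2 lower at 3 h. The lower share at 0 h was near that of all genes (29.1%), and the others are counts of few genes beside 34.2% higher at 0 h and 30.7% higher and 30.8% lower at 3 h over all genes. At 0 h the pro-death genes Bak1 (0.66) and Bax (0.50) were higher, and the pro-survival genes Bcl2l1 and Mcl1 fell by 0.52 and 0.46. At 3 h Bcl2l11, which encodes the pro-death protein Bim, was 1.46 higher and Bcl2 0.44 higher, while Mcl1 fell by 0.35 and the chaperone gene Hspa8 by 0.21. Stimulation raised 3 and lowered 5 in Foxp3-guide cells and raised 4 and lowered 5 in control-guide cells, near the shares of all genes (40.8% higher and 44.5% lower in Foxp3-guide cells, 40.9% each way in control-guide cells). Bcl2l1 rose by 5.71 in Foxp3-guide cells and by 5.21 in control-guide cells, and Bad fell by 2.82 in Foxp3-guide cells and by 2.45 in control-guide cells. Of 15 other immune GTPases, 2 were higher and 12 lower with the Foxp3 guide at 0 h (median log2 change -0.85), and 0 were higher and 12 lower at 3 h (median -0.84), where 29.1% and 30.8% of all genes were lower and 34.2% and 30.7% higher at 0 h and 3 h. The guanylate-binding protein genes Gbp5 and Gbp3 fell by 2.53 and 2.13 at 0 h, and the immunity-related GTPase Iigp1 and Gbp5 fell by 1.99 and 1.65 at 3 h. Mx1 (1.31, SE 0.31) and Rac2 (0.34, SE 0.04) were higher at 0 h. On stimulation 10 of these 15 rose and 5 fell in Foxp3-guide cells (40.8% and 44.5% of all genes). In control-guide cells 8 rose and 6 fell (40.9% of all genes each way). Iigp1 had a log2 change of 2.25 in Foxp3-guide cells and 3.15 in control-guide cells. The largest called falls in Foxp3-guide cells were in Mx2 (-2.51, SE 0.49) and Mx1 (-1.64, SE 0.30). In control-guide cells they were in Rhoh (-1.30, SE 0.04) and Mx1 (-1.10, SE 0.46). The changes of Mx1 and Mx2 were thus far less precise than that of Rhoh.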

How the data were processed

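Stranded RNA libraries of 8 mouse nTreg samples were sequenced. Per the submitters' processing notes, the tools were Trim Galore 0.6.3, STAR 2.7.9a and RSEM 1.3.1, and the genome was mm10 (GRCm38). The authors deposited expected counts for each gene; rounding to integers was done here. The authors also deposited TPM values, used to compare genes and as an alternative scale. The annotation release they used is not given in the sources used here; gene positions are from GENCODE M21 and the sequences before gene starts from RefSeq on GRCm38.p6. Gene counts were estimates: they were whole (within 0.001) in 8 of 8 libraries for Gimap4, Gimap6, Gimap8 and Gimap9, in 6 for Gimap7, in 1 for Gimap1 and Gimap5, and in 0 for Gimap3.

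Spike-in entries were dropped (1 count in all). Genes were filtered with filterByExpr and scaled by TMM, and edgeR 4.0.16 (R 4.3.3, limma 3.58.1) fitted a robust quasi-likelihood model to all 8 libraries with 1 mean per group. Residual degrees of freedom were 4, the median prior was 19.1 and the common BCV (biological coefficient of variation) stood at 3.41%. Benjamini-Hochberg adjustment ran over all 16642 genes, with calls below 0.05. The 5 comparisons were Foxp3 against control guide at 0 h and again at 3 h, 3 h against 0 h within each guide, and the interaction of both factors. The script was tested on simulated data. Libraries of a group were not duplicates (chi-square per gene 4.28 to 6.94). Replicate numbers did not pair libraries across groups (correlation of deviations -0.076 to 0.0095).

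The members and gene lists were chosen with earlier results of these data known. Named genes were the 8 members, Foxp3, all neighbours within 200 kb that passed the filter, the 5 genes most like the family, and from each list up to 2 called genes with the largest rise and fall per comparison, of which the text gives those for the guide and TCR effects that it describes; 1 gene that this rule would name is not reported here. Alternatives were upper-quartile or RLE scaling, a DESeq2 1.42.0 fit, limma-trend on log2(TPM + 1) or log2(TPM + 0.1), other filters, fits to the compared libraries only, a replicate block, a threshold of 0.01 and leaving out each library.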

Additional observations from a re-analysis of the deposited data

Results flagged for a closer look

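The TCR effect on every member differed between cells with the 2 guides by the test of the difference itself (edgeR quasi-likelihood, log2 TCR effect in Foxp3-guide cells minus that in control-guide cells), which is why each is listed. The difference was -1.17 for Gimap7, -0.76 for Gimap9, -0.68 for Gimap6, -0.43 for Gimap8 and -0.34 for Gimap1. Gimap5 was the member with a positive difference, 0.68. Gimap3 and Gimap4 had -0.17 each, and these 2 calls were lost under most of the alternatives. The call of Gimap1 was lost on log2(TPM + 1) without a filter, where its difference was -0.19 (limma-trend adjusted p = 0.0881).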

How the results depend on the processing

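Of 752 repeats of the members' tests under other settings, 690 kept their direction and their side of the threshold, 35 lost the call, 5 gained one and 22 changed direction. All changes of direction were in TCR effects. In control-guide cells they were Gimap3 with upper-quartile scaling (-0.20), on log2(TPM + 1) with or without the filter (-0.34), on log2(TPM + 0.1) (-0.34) and with at least 1 CPM in all libraries (-0.056); and on the TPM scales Gimap4 (-0.091) and Gimap9 (-0.034). Leaving out 1 library put Gimap3 there between -0.0098 and 0.077. In Foxp3-guide cells they were Gimap4 with upper-quartile scaling (-0.10), on the TPM scales (-0.22) and with at least 1 CPM (-0.0098), and Gimap8 with upper-quartile scaling (-0.049) and on the TPM scales (-0.16). Upper-quartile scaling moved the median of all genes to -0.24 in Foxp3-guide cells and -0.25 in control-guide cells, and log2(TPM + 1) moved it by over 0.1 for each guide and TCR effect (-0.15 and -0.12 for the guide at 0 h and 3 h).

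On CPM in place of TPM the log2 ratios of the family's sum were -0.51 and -0.76 for the guide at 0 h and 3 h, -0.050 and 0.21 for stimulation in Foxp3-guide and in control-guide cells, and -0.26 for the difference; the cause was not tested. On log2(TPM + 1) without a filter 5 members, not 8, differed in their TCR effect between guides, and 2 of the 5 genes nearest the family remained on the TPM scale. Among all called genes, the share that was higher was 54.0% for the guide at 0 h, 49.9% at 3 h, 47.8% and 49.99% for stimulation in Foxp3-guide and in control-guide cells and 39.7% for the difference, against 27.9%, 27.4%, 38.7%, 37.3% and 51.5% on log2(TPM + 1). A fit with the replicate number as a block called 8 of 8 members for the guide at both times and for the difference, with Gimap5 at 0.68, and changed no call of a member; the numbers do not pair the libraries. With 2 libraries a group, small differences such as those of Gimap3 and Gimap4 rest on single libraries.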
